A study of Mus musculus with 6 samples.

Results

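The subunits of the oxidative phosphorylation machinery were measured in mouse esophageal and stomach organoids on 6 single-color arrays, 3 per tissue. A gene was a member when its name on the array had a form used for nuclear-encoded subunits. For complex I these were Ndufa, Ndufb, Ndufc, Ndufs and Ndufv with a number. For the others they were Sdha to Sdhd (complex II), Uqcr genes (complex III), Cox4 to Cox8 genes (complex IV) and Atp5 genes (complex V). The rule goes by name alone, so it took in paralogs and Atp5s, now named Dmac2l, and left out subunits named otherwise. All members are called subunits below. Of the 34298 gene names on the array, 86 met this rule, and they were carried by 127 of the 55681 probes. Each gene was followed by its brightest probe, judged by the mean over all 6 arrays. The esophagus arrays held squamous epithelial organoids of mice 1, 2 and 4, and the stomach arrays held columnar epithelial organoids of mice with the same 3 numbers. All organoids were three-dimensional control cultures at passage 0. Harvest was on day 8 for all but the stomach culture of mouse 4, taken on day 7. The labels give neither strain nor age. The study's methods name wild-type C57BL/6 females, beside lines for lineage tracing, and do not say which gave these cultures. By the study's methods, stomach cultures were seeded from glands in a medium with WNT3A, R-spondin1 and gastrin. Esophageal cultures were seeded from dissociated cells in a medium without these factors and with forskolin, so tissue and medium cannot be told apart. In such bulk RNA, fewer cells of a type and less RNA per cell cannot be told apart either.

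Oxidative phosphorylation takes place in the inner mitochondrial membrane. Complex I accepts electrons from NADH and complex II accepts them from succinate, and both pass them on to ubiquinone. Complex III hands the electrons to cytochrome c, complex IV passes them to oxygen, and complex V uses the resulting proton gradient to make ATP. The mitochondrial genome encodes a small share of the subunits and the nucleus encodes the rest. Several nuclear subunits exist as isoforms whose use differs between tissues. In the gastric mucosa, the acid-secreting parietal cell is known for its dense mitochondria.

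Most of the subunits were at similar levels in the organoids of the tissues, and 4 of the 86 (4.65%) differed at an adjusted p under 0.05. This threshold refers to limma's test on log2 intensities, with Benjamini-Hochberg adjustment over all probes. Of all genes on the array, 14.9% passed the same test, and 26.6% did of the 18485 genes whose probe was flagged well above background on every array of at least 1 tissue, called detected genes here. Ndufa4l2 and Ndufa4 were higher in esophageal organoids, a direction called for 7.15% of all genes and 12.8% of detected genes. Sdhd and Ndufs7 were higher in stomach organoids, a direction called for 7.7% of all genes and 13.9% of detected genes. All 4 were well above background in the tissue with more of them. The calls for Ndufa4l2 and Ndufa4 held in all 15 alternative settings, whereas those for Sdhd and Ndufs7 were lost in some of them. Each of the 4 was measured by 1 probe, so no second probe stands beside any of these calls. For the same reason, taking the mean of a gene's probes leaves their differences as they were. Below, each difference is the mean log2 value of the esophagus arrays minus that of the stomach arrays, and the error is the standard error (SE) of limma.

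The 4 genes are introduced by sequence, since each value below comes from a 60-base probe near the 3′ end of a transcript. The first 30 bases of each probe are given in lower case, 5′ to 3′, as read from the array's probe column:
Ndufa4: ccgcacaattttccacttaagcaggaaata
Ndufa4l2: tgtccctggggatcaaacagaagcagccgt
Ndufs7: gagctgccaggctgagcacgataatcccag
Sdhd: aggaggttgaggaaagctggatttagacaa
On mouse build mm9, as the array files give it, these probes lie at chr6:11850423-11850482 (minus strand) for Ndufa4 (NM_010886), chr10:126954149-126954208 (plus strand) for Ndufa4l2 (NM_001098789), chr10:79719478-79719537 (plus strand) for Ndufs7 (NM_029272) and chr9:50404630-50404689 (minus strand) for Sdhd (NM_025848). The probes of Ndufa4 and Ndufa4l2 share at most 20 of their 60 bases in any ungapped alignment. The levels of different probes were not ranked against each other.

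Ndufa4l2 had the largest difference of the 86 subunits. It encodes a paralog of Ndufa4 that is known as a target of the hypoxia-inducible factor HIF-1. Its log2 intensity was 14.59, 15.15 and 11.64 in the esophagus arrays of mice 1, 2 and 4 (mean 13.80 ± 1.88, SD, n = 3). In the stomach arrays it was 4.85, 4.79 and 5.39 (mean 5.01 ± 0.33, SD, n = 3), and none of the 3 was well above background. All esophagus arrays were above all stomach arrays, and esophagus mouse 4 was the lowest of the esophagus arrays by over 2 log2 units. The fitted difference was 8.79 (SE 0.81, 95% interval 6.91 to 10.66, adjusted p = 0.000285). Between arrays of the same mouse number it was 9.7, 10.4 and 6.3 in mice 1, 2 and 4. Since the stomach level is only bounded, the ratio of the mean levels was put at 424-fold or more. This bound allows for the background alone and leaves out the spread among arrays, which the interval takes in. The bound sets the esophagus mean against, per stomach array, the higher of the lowest signal among probes well above background and the probe's own signal. With an array left out the difference ran from 8.11 (without esophagus mouse 2, bound 265-fold) to 9.86 (without esophagus mouse 4, bound 894-fold). The difference was 7.66 with scanner intensities and an offset of 50 and 11.52 under the 75th percentile scaling.

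Ndufa4, named as a complex I subunit and later assigned to complex IV, rose in the same direction. Its log2 intensity was 15.87, 15.56 and 16.05 in esophageal organoids and 13.22, 13.14 and 14.21 in stomach organoids. The lowest esophagus array lay above the highest stomach array, which was that of mouse 4. The difference was 2.30 (SE 0.30, 95% interval 1.61 to 2.99, adjusted p = 0.00182), a 4.93-fold higher level. Between arrays of the same mouse number it was 2.65, 2.42 and 1.84.

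Sdhd encodes a membrane anchor of succinate dehydrogenase. Its log2 intensity was 13.51, 13.57 and 14.13 in esophageal organoids and 14.64, 14.66 and 14.68 in stomach organoids. The stomach arrays were nearly equal and lay above every esophagus array. The difference was -0.93 (SE 0.19, 95% interval -1.37 to -0.48, adjusted p = 0.0184), a 1.90-fold higher level in the stomach. The adjusted p was 0.0682 without esophagus mouse 2, 0.0754 without stomach mouse 1 and 0.0734 without stomach mouse 2. It was 0.400, with a difference of -0.59, when the scanner software's background-subtracted intensities were set against their 75th percentile on each array, a setting (75th percentile scaling) that changes the background correction as well as the scaling.

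Ndufs7 encodes an iron-sulfur subunit of complex I. Its log2 intensity was 13.72, 13.61 and 13.72 in esophageal organoids and 14.10, 14.44 and 14.42 in stomach organoids, with no overlap. The difference was -0.64 (SE 0.15, 95% interval -1.0 to -0.28, adjusted p = 0.0351), a 1.55-fold higher level in the stomach. With the mouse number as a replicate block the adjusted p was 0.0780. It ranged from 0.0672 to 0.135 without esophagus mouse 1, 2 or 4 or without stomach mouse 2 or 4, and under the 75th percentile scaling the difference was -0.37 (adjusted p = 0.615).

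**Figure D1:**
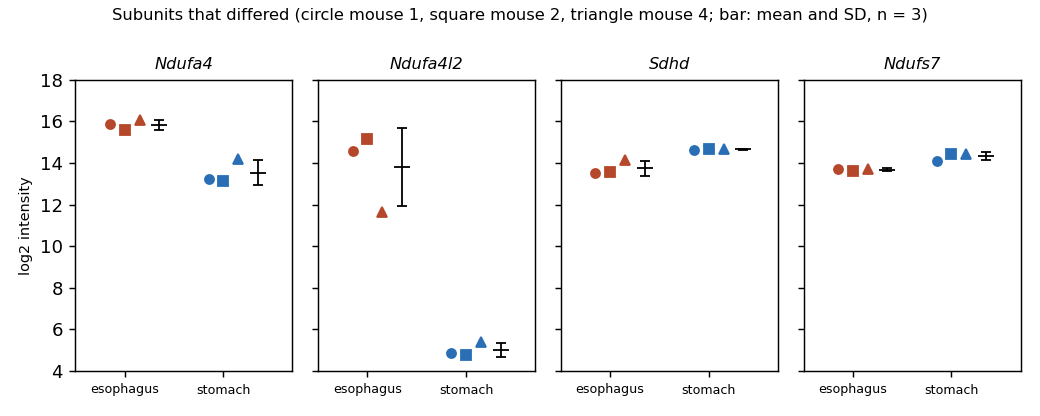
Log2 intensity of the 4 subunits with an adjusted p under 0.05 on each of the 6 arrays (vertical axis), by tissue and mouse, with the mean and SD (n = 3) as a bar. Tissues do not overlap for any of the 4, and Ndufa4l2 in stomach organoids, between 4.79 and 5.39, was not well above background.

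Over all 86 subunits, 43 differences were positive and 43 negative. Their median was 0.01 (quartiles -0.20 and 0.16), beside a median of 0.03 over all genes and of 0.06 over the detected genes (quartiles -0.45 and 0.49). A difference of at least 1.5-fold was reached by 9 subunits (10.5%), beside 24.5% of all genes and 42.2% of detected genes. The arrays of the tissues did not overlap for 19 subunits (22.1%), of which 9 were higher in esophagus and 10 in stomach. The same was true of 31.6% of all genes and of 45.5% of detected genes. The 95% interval of the difference lay within 2-fold in either direction for 76 subunits (88.4%), beside 68.8% of all genes and 47.5% of detected genes. The interval extended beyond 2-fold for the other 10, Ndufa4l2, Ndufa4, Sdhd, Uqcrq, Ndufb1-ps, Ndufa1, Ndufa6, Ndufs4, Atp5k and Cox6b2. At an unadjusted p under 0.05 and a 1.5-fold change, 8 subunits passed, beside 21.7% of all genes and 37.8% of detected genes.

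**Figure D2:**
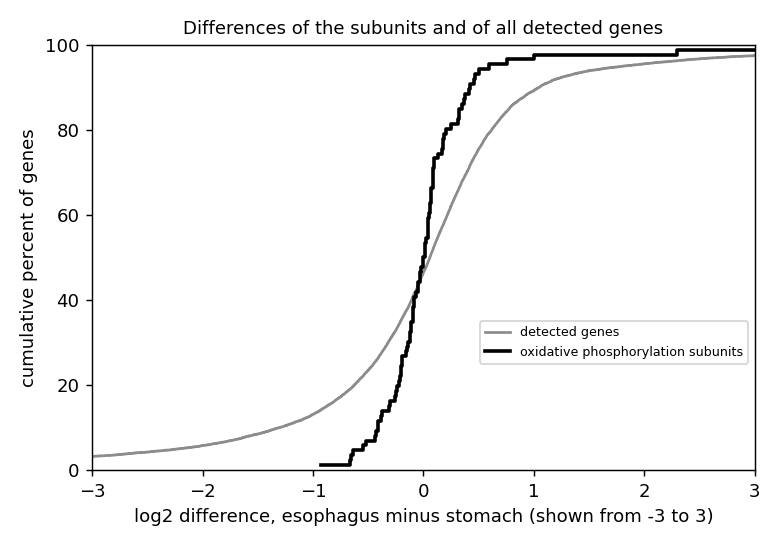
Cumulative percent of genes (vertical axis) against the log2 difference, esophagus minus stomach (horizontal axis, shown from -3 to 3), for the 86 subunits in black and for the 18485 detected genes in grey. The curve of the subunits is steeper, with quartiles at -0.20 and 0.16, and both cross the middle near 0.

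The direction of many of these small differences changed with the processing. The deposited quantile normalized values gave 43 positive and 43 negative differences, and the 75th percentile scaling, with its other background correction, gave 69 positive and 17 negative ones. Their median was then 0.27 and that of the detected genes 0.17, which was 0.06 before. Leaving out esophagus mouse 4 gave 28 positive and 58 negative values, with a median of -0.11. The arrays themselves differed: after each gene was centred on its own mean, the median of 80 subunits was -0.18, -0.10 and 0.24 in esophagus mice 1, 2 and 4 and -0.03, -0.05 and 0.11 in stomach mice 1, 2 and 4. These 80 leave out 4 dim genes, Ndufa4 and Ndufa4l2. The array of esophagus mouse 4 was the highest of the 6 for 43 of the 80, and that of stomach mouse 4 for 24. The array of esophagus mouse 1 was the lowest for 33. Over all detected probes, the same medians ran from -0.05 to 0.08. Esophagus mouse 4 was the only array on its slide, and the part of the slide in these values was not tested.

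**Figure D3:**
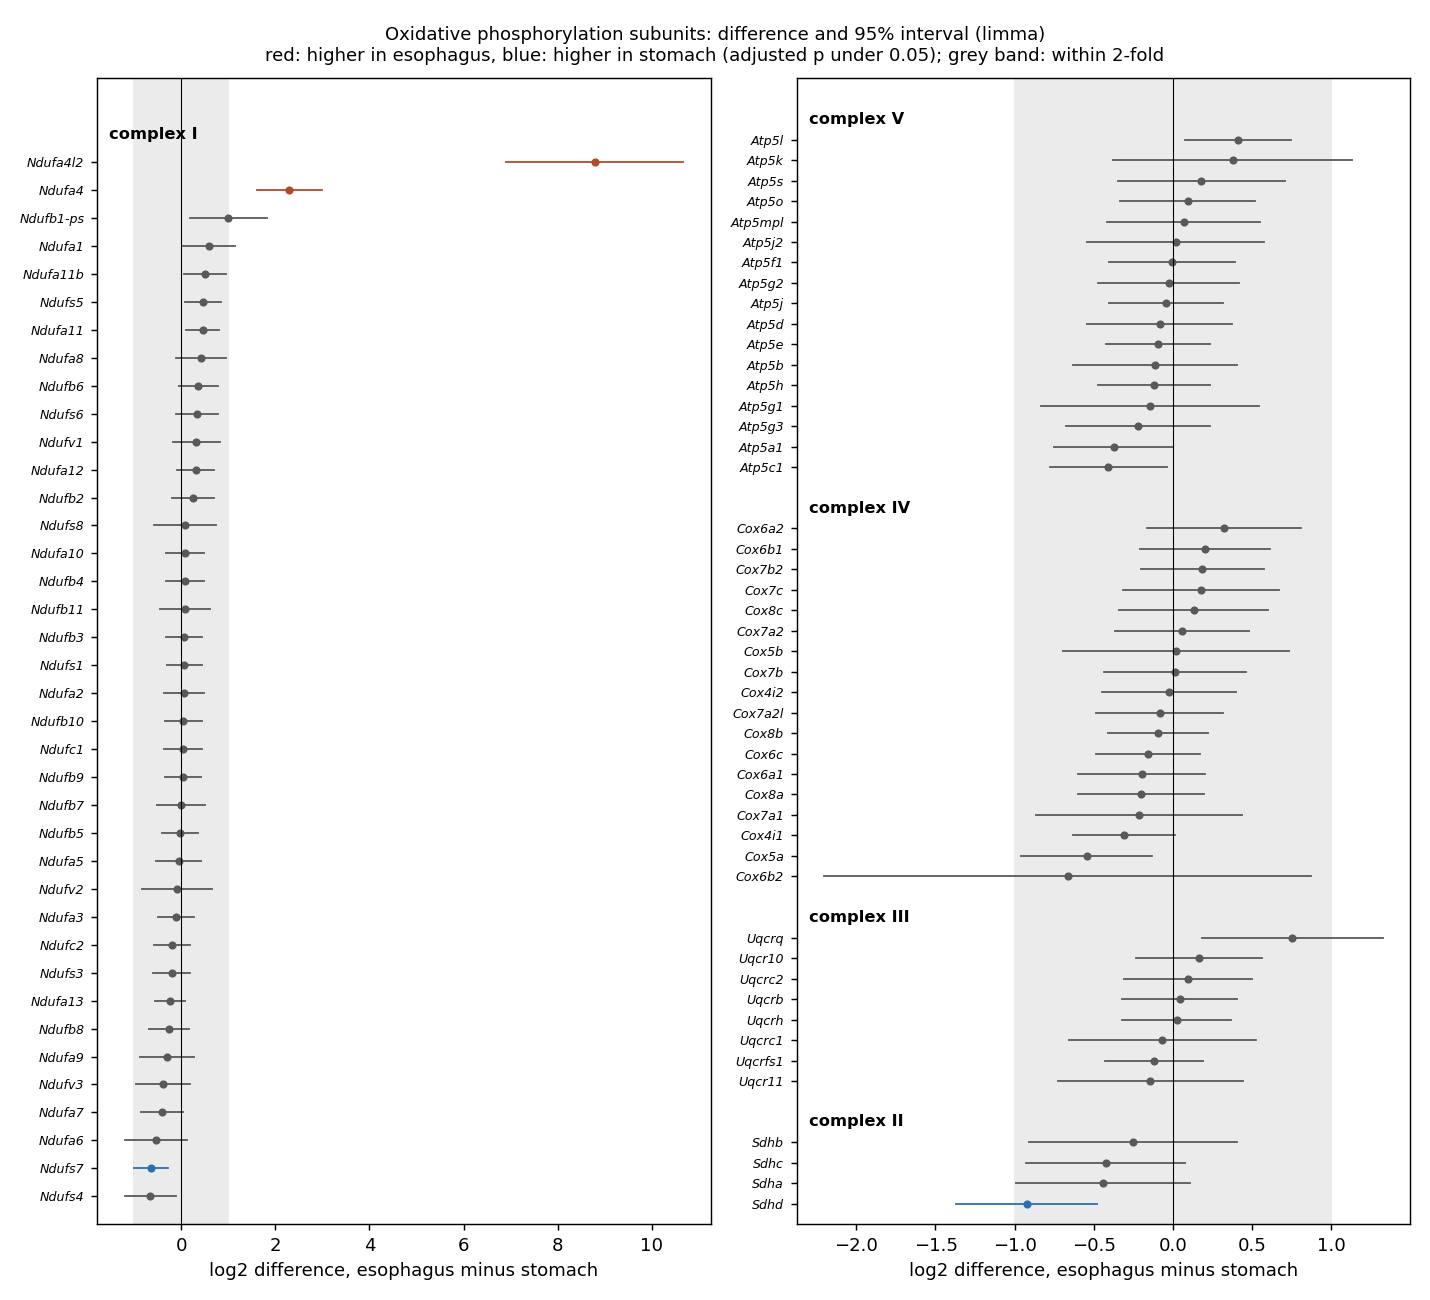
Log2 difference, esophagus minus stomach (horizontal axis), of the subunits reported here with their 95% intervals, grouped by complex, on a wider scale in the left panel than in the right one. The 2 genes in red were higher in esophagus and the 2 in blue higher in stomach at an adjusted p under 0.05, and the grey band marks differences within 2-fold.

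By gene name, complex I held 39 of the subunits, of which 2 rose in esophagus, 1 was higher in stomach and 36 did not pass (7.69% called, beside 14.9% of all genes and 26.6% of detected genes). The 2 were Ndufa4 and its paralog Ndufa4l2, so no other gene named for complex I was higher in esophagus at the threshold. Their median difference was 0.06 (0.37 under the 75th percentile scaling and -0.08 without esophagus mouse 4), with 24 positive and 15 negative values. The 11 Ndufs and Ndufv genes, which include the core subunits that carry flavin and iron-sulfur centres, had a median of 0.04. The 28 Ndufa, Ndufb and Ndufc genes had a median of 0.07. Ndufv1, the subunit that binds NADH, was at 14.07, 14.51 and 14.88 in esophagus and at 14.13, 14.18 and 14.17 in stomach. Its difference of 0.32 did not pass (adjusted p = 0.432), and the arrays overlapped. Ndufs1, the largest iron-sulfur subunit, was at 13.05, 12.95 and 13.03 in esophagus and at 12.86, 12.78 and 13.19 in stomach. The arrays overlapped, and the 95% interval of the Ndufs1 difference, -0.30 to 0.44, lay well within 2-fold.

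Other complex I genes came near the threshold without passing it. Ndufa11 had a difference of 0.46 (adjusted p = 0.105) and passed on scanner intensities corrected with an offset of 50. Ndufs5 stood at 0.47 (adjusted p = 0.124) and Ndufa1 at 0.60 (adjusted p = 0.172), both without overlap between the tissues. Ndufs4, at -0.65 (adjusted p = 0.129), passed at the adjusted threshold with the slide as a block, which amounts to leaving out esophagus mouse 4, and in no other setting. Ndufb1-ps was at 6.16, 6.84 and 7.71 in esophagus and at 5.84, 5.82 and 6.03 in stomach (difference 1.0, adjusted p = 0.124). It passed without esophagus mouse 1, as did Ndufa6 with lower levels in esophagus.

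All 4 subunits of complex II had negative differences, with a median of -0.43, and 1 of the 4 passed, Sdhd, described above (25%, beside 14.9% of all genes and 26.6% of detected genes). The 4 were negative under each scaling tried and with any array left out. Their median was -0.15 under the 75th percentile scaling, -0.28 without stomach mouse 4 and -0.61 without esophagus mouse 4. Sdha, the flavin-carrying catalytic subunit, was at 12.36, 12.87 and 13.26 in esophagus and at 13.22, 13.15 and 13.43 in stomach. Its difference was -0.44 (95% interval -0.99 to 0.11, adjusted p = 0.322), and the array of esophagus mouse 4 lay among the stomach arrays. Sdhb, the iron-sulfur subunit, was at 13.72, 13.74 and 14.69 in esophagus and at 14.31, 14.06 and 14.53 in stomach (difference -0.25, adjusted p = 0.680). Here the array of esophagus mouse 4 was the highest of all 6. Sdhc, the other membrane anchor, was at 13.99, 13.83 and 14.11 in esophagus and at 14.23, 14.13 and 14.85 in stomach. It did not overlap between the tissues, by a narrow margin, and its difference was -0.43 (adjusted p = 0.292). Complex II is the only one of the 5 that is also an enzyme of the tricarboxylic acid cycle, whose other genes are given further on.

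None of the 8 complex III genes passed, beside 14.9% of all genes and 26.6% of detected genes, and their median difference was 0.03. Scanner intensities with either offset gave -0.03 and the 75th percentile scaling gave 0.33. With an array left out the median ran from -0.07 (without esophagus mouse 4) to 0.10 (without esophagus mouse 1). Uqcrc1, a core subunit, was at 12.67, 13.14 and 13.21 in esophagus and at 12.73, 12.93 and 13.56 in stomach. Uqcrfs1, the Rieske iron-sulfur protein, was at 13.54, 13.53 and 13.56 in esophagus and at 13.61, 13.72 and 13.65 in stomach. The Uqcrfs1 values did not overlap, but the difference was only -0.12 (SE 0.13, adjusted p = 0.669). Uqcrq, a small subunit that sits beside cytochrome b, had the largest difference of the complex. It was at 15.20, 15.37 and 15.61 in esophagus and at 14.43, 14.33 and 15.16 in stomach, with no overlap. Its difference of 0.75 did not pass (adjusted p = 0.0992), while a second, dimmer probe of the gene with the same difference of 0.75 did (adjusted p = 0.0468). It also passed without stomach mouse 4.

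None of the 18 genes named Cox4 to Cox8, which leave out Ndufa4, passed, beside 14.9% of all genes and 26.6% of detected genes. Their median difference was -0.06, and it was 0.20 under the 75th percentile scaling, -0.12 with the filter on dim probes, and from -0.11 (without stomach mouse 2) to 0.02 (without stomach mouse 4) with an array left out. Of these genes 4, Cox6a2, Cox7b2, Cox8b and Cox8c, were not detected by this measure in either tissue. Cox5a, a subunit on the matrix side, was at 14.81, 15.05 and 14.99 in esophagus and at 15.45, 15.26 and 15.78 in stomach. The tissues did not overlap, but its difference of -0.55 (95% interval -0.96 to -0.13) did not pass (adjusted p = 0.0988). Cox5b, the zinc-binding subunit, was at 14.76, 15.47 and 15.93 in esophagus and at 15.42, 15.02 and 15.66 in stomach. It overlapped widely, with a difference of 0.02 (95% interval -0.70 to 0.73).

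Complex V held 17 genes, none of which passed, beside 14.9% of all genes and 26.6% of detected genes. The median difference of the 17 was -0.05 (0.24 under the 75th percentile scaling and -0.09 on scanner intensities with either offset). With an array left out the direction of the median turned, from -0.16 without esophagus mouse 4 to 0.03 without esophagus mouse 1 and 0.08 without stomach mouse 4. Atp5a1, the alpha subunit of the catalytic head, was at 14.43, 14.78 and 14.62 in esophagus and at 15.04, 15.09 and 14.82 in stomach. The arrays did not overlap, and the difference was -0.37 (adjusted p = 0.210). Atp5b, the catalytic beta subunit, was at 16.49, 17.00 and 17.17 in esophagus and at 17.08, 16.72 and 17.21 in stomach, with overlap and a difference of -0.11 (95% interval -0.63 to 0.41). Atp5c1, the central stalk subunit, did not overlap between the tissues, with a difference of -0.41 (adjusted p = 0.164). Atp5l, a subunit of the membrane part, did not overlap either, at 0.41 (adjusted p = 0.122), and it passed on scanner intensities with an offset of 50. The 3 genes without overlap were 17.6% of the complex, beside 31.6% of all genes and 45.5% of detected genes. The dimmest of the 5 Atp5l probes passed, at 0.65 (adjusted p = 0.0305), and the other 4 did not. Among the 28 subunits with several probes, 41 probes were not the brightest of their gene, and only those of Uqcrq and Atp5l, 2 in all, passed.

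Isoform use was compared by taking the difference of 2 isoforms on each array and asking whether it moved between the tissues. With 3 arrays against 3, the exact two-sided permutation test cannot go below 0.1, so none of the 12 pairs could pass. In 2 pairs the arrays of the tissues did not overlap. For Ndufa4 minus Ndufa4l2 the value was 2.03 ± 2.10 in esophagus and 8.52 ± 0.26 in stomach (SD, n = 3), a shift of -6.48 (exact p = 0.1, adjusted p = 0.6), and the stomach value is limited by the background of Ndufa4l2. For Atp5g2 minus Atp5g3, 2 genes for the same c-ring protein of complex V, it was 1.56 ± 0.13 and 1.36 ± 0.11 (SD, n = 3), a shift of 0.19 (exact p = 0.1, adjusted p = 0.6). This small shift was 0.01 under the 75th percentile scaling. Both isoforms were well above background on all arrays in 7 of the 12 pairs, and Atp5g2 and Atp5g3 were the only pair of those without overlap.

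The isoforms known from other tissues gave no call in either direction. The subunit Cox4 has a general isoform, Cox4i1, and an isoform best known from lung, Cox4i2. Cox4i1 was at 14.92, 15.08 and 14.98 in esophagus and at 15.21, 15.32 and 15.37 in stomach, a difference of -0.31 (adjusted p = 0.230) without overlap. Cox4i2 was at 6.37, 5.94 and 5.96 in esophagus and at 5.92, 6.14 and 6.29 in stomach, a difference of -0.03. The Cox4i1 minus Cox4i2 value moved by -0.28 and overlapped. The striated muscle isoform of Cox6a, Cox6a2, was well above background on 1 of the 6 arrays, at 5.55, 4.85 and 5.42 in esophagus and at 4.83, 4.92 and 5.10 in stomach. Its general counterpart Cox6a1 was at 16.57, 16.95 and 17.00 in esophagus and at 17.03, 16.90 and 17.18 in stomach. The arrays of the tissues overlapped for both genes.

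Cox7a1, the heart and skeletal muscle isoform, was above background in both tissues, at 7.20, 7.45 and 8.12 in esophagus and at 7.68, 7.52 and 8.21 in stomach. The general isoform Cox7a2 was at 14.59, 14.80 and 15.12 in esophagus and at 14.61, 14.90 and 14.82 in stomach. Cox7a2l, which takes part in joining complexes III and IV, was at 15.95, 15.63 and 15.60 in esophagus and at 15.93, 15.91 and 15.60 in stomach. The arrays of the tissues overlapped for all 3 genes. The 95% interval of the difference was -0.87 to 0.43 for Cox7a1, -0.37 to 0.48 for Cox7a2 and -0.48 to 0.31 for Cox7a2l.

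Cox6b2, an isoform best known from testis, varied widely among the esophagus arrays. It was at 10.48, 9.02 and 7.37 in esophagus, with an SD of 1.56, and at 9.60, 9.63 and 9.63 in stomach, with an SD of 0.02. The stomach values lay inside the range of the esophagus values, and the difference of -0.66 had a 95% interval from -2.20 to 0.87 (adjusted p = 0.632). The general Cox6b1 was at 12.91, 12.73 and 13.16 in esophagus and at 12.72, 12.92 and 12.55 in stomach. Cox6b1 overlapped between the tissues, with a difference of 0.20 (95% interval -0.21 to 0.61).

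Cox7b, the general isoform, was at 15.18, 15.35 and 15.65 in esophagus and at 15.35, 15.15 and 15.64 in stomach, a difference of 0.01. Its testis isoform Cox7b2 lay between 4.43 and 4.93 on all arrays and was above background on none. Cox8a was at 16.22, 16.27 and 16.67 in esophagus and at 16.53, 16.55 and 16.70 in stomach, a difference of -0.20. The muscle isoform Cox8b lay between 4.53 and 4.75 and the third isoform Cox8c between 4.27 and 4.95, again above background on no array. For complex V, Atp5g1 was at 14.10, 14.55 and 15.07 in esophagus and at 14.53, 14.43 and 15.20 in stomach. Atp5g2 was at 16.39, 16.37 and 16.79 in esophagus and at 16.52, 16.32 and 16.80 in stomach, and Atp5g3 at 14.69, 14.88 and 15.32 in esophagus and at 15.15, 15.07 and 15.33 in stomach. All 3 Atp5g genes overlapped between the tissues, and mouse 4 gave the highest value of each tissue for each of them.

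**Figure D4:**
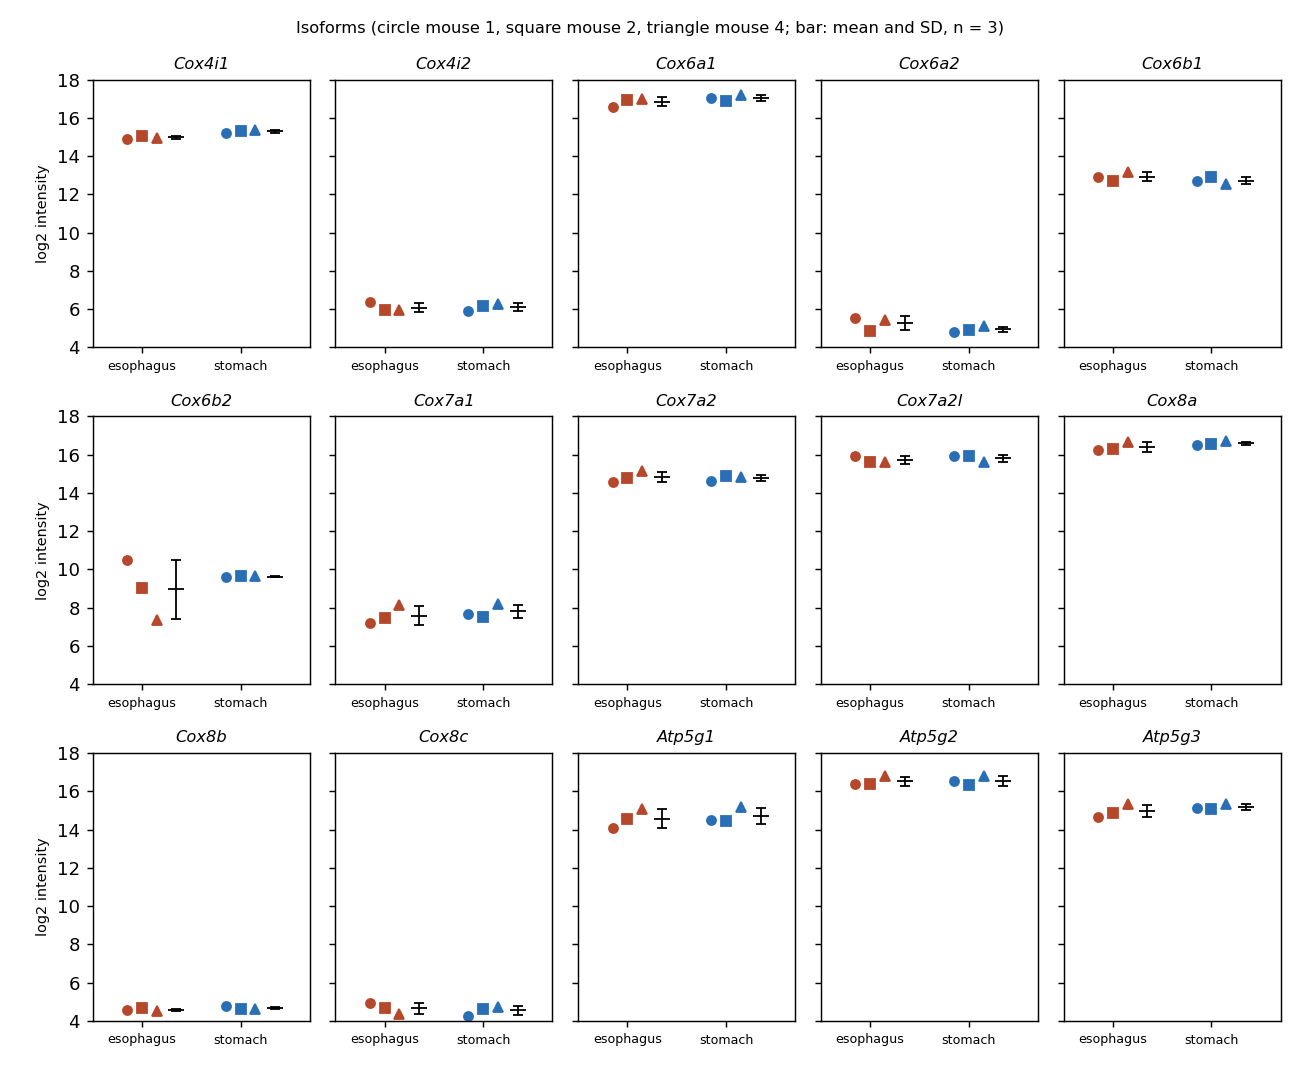
Log2 intensity of isoforms of complex IV and complex V subunits on each of the 6 arrays (vertical axis), by tissue and mouse, with the mean and SD (n = 3) as a bar. Cox6b2 spread from 7.37 to 10.48 in esophagus against 9.60 to 9.63 in stomach, and Cox8b and Cox8c stayed under 5 on every array.

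The promoters of Ndufa4, Ndufs7 and Sdhd are given with the motifs that a search found in them, because members of this machinery share regulators. The sequences are from RefSeq on build GRCm38.p6 and run from 250 bases before to 50 bases after the start. A promoter was matched for 69 of the 86 subunits, Ndufa4l2 not among them. Capitals mark matches, on either strand, to the letters GCGCANGCG (NRF1), CCGGAAG (ETS factors such as GABPA), AAGATGGCG (YY1), AAGGTCA (estrogen-related receptors) and ACGTG (the core of hypoxia response elements):
Ndufa4, chr6:11907401-11907700, minus strand: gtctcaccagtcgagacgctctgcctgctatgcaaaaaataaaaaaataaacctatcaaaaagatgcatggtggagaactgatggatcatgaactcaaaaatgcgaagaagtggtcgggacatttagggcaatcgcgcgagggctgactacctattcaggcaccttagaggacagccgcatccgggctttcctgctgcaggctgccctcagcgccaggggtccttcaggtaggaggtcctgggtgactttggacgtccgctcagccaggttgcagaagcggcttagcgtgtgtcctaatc
Ndufs7, chr10:80249199-80249498, plus strand: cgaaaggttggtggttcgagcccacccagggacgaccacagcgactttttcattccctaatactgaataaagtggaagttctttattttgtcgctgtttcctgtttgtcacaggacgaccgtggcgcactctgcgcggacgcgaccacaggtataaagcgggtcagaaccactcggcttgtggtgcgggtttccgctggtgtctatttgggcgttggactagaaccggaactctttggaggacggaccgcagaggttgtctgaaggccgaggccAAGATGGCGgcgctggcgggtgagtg
Sdhd, chr9:50603800-50604099, minus strand: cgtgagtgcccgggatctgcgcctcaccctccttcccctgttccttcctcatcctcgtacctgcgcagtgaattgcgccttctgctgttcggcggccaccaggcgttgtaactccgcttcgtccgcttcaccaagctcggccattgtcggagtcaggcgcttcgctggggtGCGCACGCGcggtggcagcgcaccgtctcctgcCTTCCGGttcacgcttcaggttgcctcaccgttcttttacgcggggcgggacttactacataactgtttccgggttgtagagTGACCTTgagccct
The Sdhd window held a match to NRF1, to the ETS motif on the reverse strand and to the estrogen-related receptor motif on the reverse strand. The Ndufs7 window held the YY1 motif, and the Ndufa4 window held none of the 5. Over the 69 subunits, the NRF1 letters were in 20 (29%), beside 7.03% of the 27025 genes with a promoter, whether or not detected here. The ETS letters were in 16 (23.2%), beside 9.93%, and the YY1 letters in 7 (10.1%), beside 1.64%. The estrogen-related receptor letters were in 8 (11.6%), beside 5.38%, and ACGTG was in 19 (27.5%), beside 21.8%. A match is a description of letters and not a bound site.

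Among 25 regulators of mitochondrial genes and of mitochondrial DNA, 2 rose in esophagus and 2 were higher in stomach (16% in all, beside 14.9% of all genes and 26.6% of detected genes), with a median difference of 0.11 (0.07 without esophagus mouse 4, 0.23 without stomach mouse 4 and 0.28 under the 75th percentile scaling). Ppargc1a, the coactivator of mitochondrial biogenesis, was at 5.25, 4.72 and 4.99 in esophagus and at 11.19, 10.83 and 10.99 in stomach. None of the esophagus arrays was well above background for it. The fitted difference was -6.02 (adjusted p = 7.635e-07). The bound on the ratio of the means, which leaves out the spread among arrays, was 59.0-fold in favor of the stomach. Esrrg, the estrogen-related receptor gamma, was at 4.54, 5.02 and 4.59 in esophagus, again below background, and at 7.18, 7.32 and 8.14 in stomach. Esrrg was higher in stomach, with a bound of the same kind of 6.01-fold (fitted difference -2.83, adjusted p = 0.000387). Both calls held in all alternative settings.

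Hif1a, the oxygen-regulated subunit of HIF-1, was at 11.92, 11.53 and 11.81 in esophagus and at 9.39, 8.93 and 11.08 in stomach. Stomach mouse 4 lay near the esophagus arrays, and the difference of 1.95 had an SE of 0.50 (adjusted p = 0.0416). The call was lost, at adjusted p between 0.0900 and 0.163, without esophagus mouse 1, 2 or 4 or without stomach mouse 1 or 2, and it was also lost on scanner intensities with an offset of 50 (0.0869). Mterf3, which represses mitochondrial transcription, was higher in esophagus by 0.97 (adjusted p = 0.0151), and lost its call without esophagus mouse 2 (adjusted p = 0.0527), stomach mouse 1 (0.0713) or stomach mouse 2 (0.0699) and under the 75th percentile scaling (0.0765). Nrf1, at 0.74 (adjusted p = 0.0967), and Gabpa, at 0.68 (adjusted p = 0.0664), were higher on every esophagus array than on any stomach array but did not pass. Yy1 (0.11), Esrra (-0.06), Ppargc1b (0.07) and the mitochondrial transcription factor Tfam (0.02) overlapped between the tissues.

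**Figure D5:**
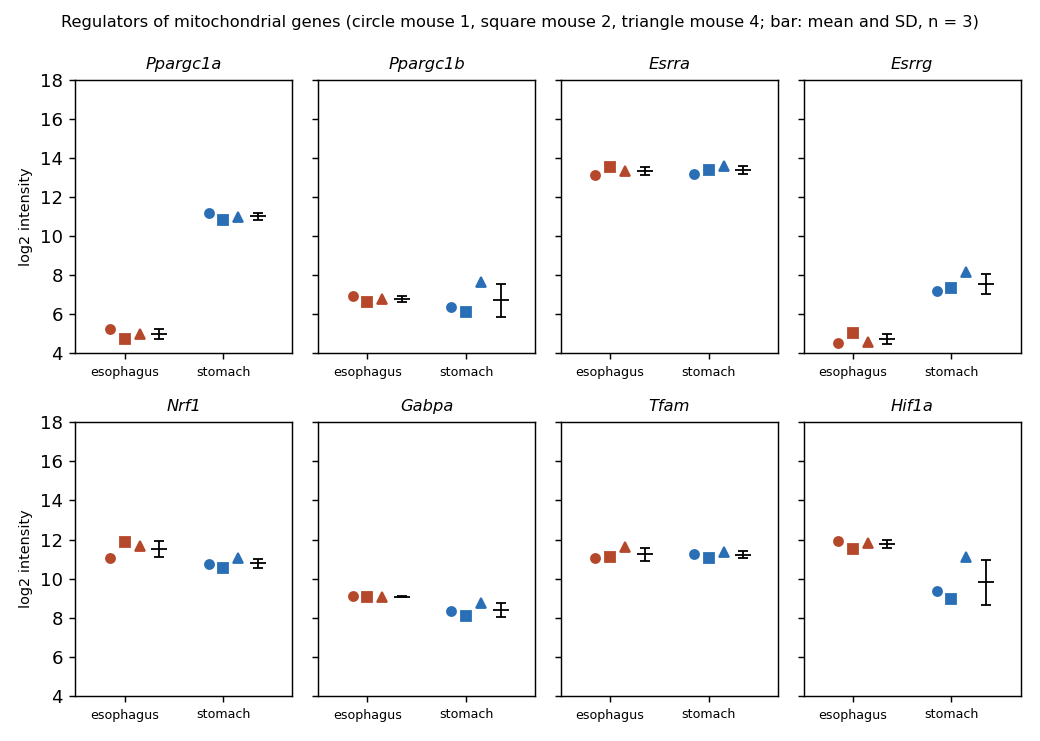
Log2 intensity of 8 regulators of mitochondrial genes on each of the 6 arrays (vertical axis), by tissue and mouse, with the mean and SD (n = 3) as a bar. Ppargc1a lay between 10.83 and 11.19 in stomach and between 4.72 and 5.25, below background, in esophagus, while Tfam and Esrra overlapped.

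The mitochondrially encoded subunits were measured by 9 of 13 genes. None of the 9 passed in either direction, beside 14.9% of all genes and 26.6% of detected genes. All 9 differences were negative, with a median of -0.41, but under the 75th percentile scaling 2 of the 9 turned positive and the median was -0.13. Without esophagus mouse 2 or stomach mouse 2, 1 of the 9 was positive, with medians of -0.38 and -0.30. ND5, a proton-pumping subunit of complex I, was at 14.73, 14.61 and 14.30 in esophagus and at 15.07, 15.18 and 15.74 in stomach (difference -0.79, adjusted p = 0.0579). ND2, another membrane subunit, was at 15.07, 15.18 and 15.02 in esophagus and at 15.46, 15.80 and 15.56 in stomach (difference -0.52, adjusted p = 0.0716). These 2 genes and ND4L, 33.3% of the 9, did not overlap between the tissues, beside 31.6% of all genes and 45.5% of detected genes. CYTB, the cytochrome b of complex III, did overlap, at -0.19. The transcripts of the mitochondrial genome come from shared precursors, so the 9 values are not independent.

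Of 45 assembly factors of the chain, 2 rose in esophagus and 1 was higher in stomach, with a median of 0.04 (-0.05 without esophagus mouse 4, 0.15 without esophagus mouse 2 and 0.22 under the 75th percentile scaling). These 3 are 6.67% of the list, beside 14.9% of all genes and 26.6% of detected genes. Uqcc2, which helps to build complex III, stood at 14.08, 14.34 and 14.88 in esophagus and at 13.55, 13.22 and 13.42 in stomach, a difference of 1.03 (adjusted p = 0.0218). The complex II factor Sdhaf3 was higher in esophagus by 0.87 (adjusted p = 0.0382). Uqcc3, also a complex III factor, was lower in esophagus, at -0.89 (adjusted p = 0.0355, or 0.0634 with the replicate block). The Uqcc2 call was lost without esophagus mouse 2 (adjusted p = 0.0565), stomach mouse 1 (0.0626) or stomach mouse 2 (0.0972). Sdhaf3 lost its call without esophagus mouse 1 or 4 or stomach mouse 1 or 2 (adjusted p from 0.0879 to 0.139). Uqcc3 lost it without esophagus mouse 2 or 4 or stomach mouse 1 or 2 (adjusted p from 0.0725 to 0.140). Under the 75th percentile scaling neither Sdhaf3 (0.154) nor Uqcc3 (0.378) passed, nor did they on scanner intensities with an offset of 50 (0.0551 and 0.0619). Sdhaf3 did not pass with trended robust variances (0.0685).

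Of 24 genes for the electron carriers ubiquinone and cytochrome c, 1 rose in esophagus and 2 were higher in stomach, with a median of -0.10 (-0.26 without esophagus mouse 4, and 0.01 both without stomach mouse 4 and under the 75th percentile scaling). Called were 12.5% of this list, beside 14.9% of all genes and 26.6% of detected genes. Coq10b, a ubiquinone-binding protein, was at 11.92, 11.46 and 10.75 in esophagus and at 10.05, 9.50 and 10.37 in stomach (difference 1.40, adjusted p = 0.0317, or 0.0553 with the replicate block). Coq8b, an atypical kinase of ubiquinone synthesis, was higher in stomach (difference -1.19, adjusted p = 0.00700), as was Hccs, which attaches heme to cytochrome c (difference -0.78, adjusted p = 0.0391, or 0.0601 with the replicate block). The Coq10b call was lost without esophagus mouse 1 or 2 or stomach mouse 1 or 2 (adjusted p from 0.0680 to 0.122), and that of Hccs on leaving out any array except that of stomach mouse 4 (0.0807 to 0.156). Under the 75th percentile scaling Coq8b was at -1.10 (adjusted p = 0.0585), and the adjusted p of Hccs was 0.517. On scanner intensities Hccs did not pass with an offset of 16 (0.0514) or 50 (0.0695), nor Coq10b with an offset of 50 (0.0668). Of 15 carriers and porins, none rose in esophagus and 3 were higher in stomach, with a median of -0.25 (a share of 20% in stomach, beside 7.7% of all genes and 13.9% of detected genes; the median was 0.05 under the 75th percentile scaling, and -0.42 to -0.14 with an array left out, without esophagus mouse 4 and 1). Vdac2, a pore of the outer membrane, was at 13.79, 14.30 and 14.50 in esophagus and at 15.64, 15.37 and 15.99 in stomach (difference -1.47, adjusted p = 0.00572). The inner membrane carriers Ucp2 (-1.23, adjusted p = 0.0218) and Ucp3 (-1.11, adjusted p = 0.0219) were the others. Ucp2 lost its call without esophagus mouse 2 (adjusted p = 0.0783) or stomach mouse 2 (0.0637), and Ucp3 without esophagus mouse 1 or 2 or stomach mouse 2 (0.0558 to 0.0944). Under the 75th percentile scaling none of the 3 passed (adjusted p = 0.0758 for Vdac2, 0.166 for Ucp2 and 0.193 for Ucp3), and Ucp3 did not pass with the mean of its probes (0.0837).

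Pyruvate dehydrogenase and the tricarboxylic acid cycle supply the chain with NADH and succinate. Of 25 genes of this list none rose in esophagus and 5 were higher in stomach (20%), beside 7.7% of all genes and 13.9% of detected genes. The median was -0.38 (-0.11 under the 75th percentile scaling, -0.23 without esophagus mouse 1 and -0.18 without stomach mouse 4), with 9 positive and 16 negative differences. The list also holds enzymes beside those of the supply itself, among them a kinase and pyruvate carboxylase, both called. Pdk2, a kinase that inactivates pyruvate dehydrogenase, was at 7.11, 6.07 and 6.14 in esophagus and at 9.89, 10.26 and 9.24 in stomach (difference -3.36, adjusted p = 0.000572). Pcx, pyruvate carboxylase, was at 11.91, 11.97 and 11.99 in esophagus and at 14.68, 14.78 and 14.41 in stomach (difference -2.67, adjusted p = 2.037e-05). Idh2, the mitochondrial NADP-linked isocitrate dehydrogenase, was at 12.41, 12.45 and 12.94 in esophagus and at 14.36, 14.38 and 14.06 in stomach (difference -1.67, adjusted p = 0.000996). None of these 3 overlapped between the tissues, and all 3 calls held in every alternative setting. The remaining 2, named after their values were seen, were Suclg1 (-0.83, adjusted p = 0.0216) and Pdp1 (-0.75, adjusted p = 0.0468). Suclg1 lost its call on leaving out any array except that of esophagus mouse 4 (0.0524 to 0.0826), and Pdp1 on leaving out any except that of esophagus mouse 1 (0.0622 to 0.163). Neither passed under the 75th percentile scaling (adjusted p = 0.443 and 0.295), and Pdp1 did not pass on scanner intensities with either offset, with trended robust variances, with the slide as a block or with the mean of its probes (adjusted p from 0.0518 to 0.114).

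The mitochondrial ribosome and import machinery make and place subunits. Of 78 ribosomal proteins 1 rose in esophagus, Mrpl36 (0.62, adjusted p = 0.0392, or 0.0661 with the replicate block), and none was higher in stomach, with a median of 0.19 (0.03 without esophagus mouse 4 and 0.40 under the 75th percentile scaling). Of 27 import proteins and chaperones 1 rose in esophagus, Timm9 (0.63, adjusted p = 0.0438, or 0.0976 with the replicate block), and none was higher in stomach, with a median of 0.30 (0.18 without stomach mouse 1 or esophagus mouse 4, 0.19 with the mean of each gene's probes and 0.52 under the 75th percentile scaling). Called were 1.28% of the first list and 3.7% of the second, beside 14.9% of all genes and 26.6% of detected genes. Mrpl36 lost its call on leaving out any array except that of esophagus mouse 2 (0.0570 to 0.142). Timm9 lost it on leaving out any of the 6 arrays (0.0568 to 0.168) and with the mean of its probes (difference 0.17, adjusted p = 0.701). Neither passed under the 75th percentile scaling (0.108 for Mrpl36 and 0.128 for Timm9) or with trended robust variances (0.0676 and 0.109).

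The tissue labels were checked by markers. Of 8 squamous markers 7 were higher in esophagus, with Krt5 at 17.07, 17.08 and 17.08 there and between 4.85 and 5.39 in stomach. The brightest probe of Trp63, the squamous factor p63, was called higher in stomach (difference -1.22, adjusted p = 0.0249). The other 3 probes of this gene were called higher in esophagus, by 6.06 to 8.55, and were above background on no stomach array. Of 8 columnar markers 7 were higher in stomach, and the other, Epcam, had a difference of -0.72 without overlap that did not pass (adjusted p = 0.0623). Of the 3 chief cell and 2 mucous neck cell markers all were higher in stomach. Of 5 parietal cell markers Clic6 and Atp4a were higher in stomach. Atp4a was at 5.76 to 6.42 in stomach, and Atp4b and Slc26a7 were well above background on no array. The summed level of the parietal markers ran from 7.27 to 7.36 (log2) in esophagus and from 13.83 to 13.91 in stomach, where Clic6 alone was at 13.81 to 13.90. None of the 7 striated muscle, 4 smooth muscle, 6 fibroblast, 5 immune cell or 3 endothelial cell markers passed, and Des, the muscle filament, lay between 4.66 and 4.85 on all arrays. Of the immune markers, Cd68, a lysosomal protein, was at 14.77, 12.94 and 11.80 in esophagus and at 11.04, 11.22 and 12.36 in stomach (difference 1.63, adjusted p = 0.211), while Ptprc and Lyz2 were above background on no array. The summed immune level ran from 11.99 to 14.80 in esophagus and from 11.33 to 12.53 in stomach. The part of the marked cells in the differences of the subunits was not tested. The share of spots well above background was 45.5% to 51.1% per array, and no spot was saturated.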

How the data were processed

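RNA of 6 organoid cultures was hybridized to single-color Agilent 60-base probe arrays, and scanned spots were quantified by the authors in Feature Extraction 11.5.1.1. Deposited per array is the intensity of each spot, with local background and flags, not normalized between arrays. The authors' deposited log2 values, background corrected and quantile normalized by them, were matched to spots by number, since each column was closest to the scan of its own array (Spearman 0.989 to 0.994, against at most 0.934 with another scan). They gave the main results. The empty cells, 227 to 432 per array, were all at outlier-marked spots and were left out. Spots of a probe were averaged. In R 4.3.3 with limma 3.58.1, the tissues were compared with lmFit and eBayes, on all probes and without a block, with Benjamini-Hochberg adjustment and a threshold of 0.05. The script was tested on simulated data. Well above background means the scanner software's flag on all 3 arrays of a tissue. Precision is limited by there being 3 arrays per tissue, and intensities of different probes were not ranked against each other, since their gap on an array holds each probe's own response. In the isoform comparison only the shift of that gap between tissues is read. Probe coordinates are those of the files (mm9), and no genome was used. RefSeq tables gave promoters and the names of older symbols.

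The labels give each mouse number to 1 culture of each tissue. Whether 1 animal gave both is not stated beyond that number, which served as the replicate block. Deviations from the tissue means correlated across probes by 0.0418, 0.023 and -0.0016 in mice 1, 2 and 4. The members, lists, markers, motifs and tests were chosen with earlier results of these data known, and the NRF1 and YY1 letters were shortened by 1 base after a first search. Named with values were the subunits that passed, both isoforms of each pair, core subunits (Ndufv1, Ndufs1, Sdha, Sdhb, Uqcrc1, Uqcrfs1, Cox4i1, Cox5a, Cox5b, Atp5a1, Atp5b), and from the other lists up to the 3 largest differences that passed in each direction. A further core subunit counts among the members and is not reported here. Subunits near the threshold, with other regulators and mitochondrial genes, were added after their values were seen. Of 13 mitochondrially encoded genes, 9 were matched by name. The alternatives were scanner mean intensities with normexp offsets of 16 or 50, 75th percentile scaling of the software's background-subtracted intensity, a filter on dim probes, trended robust variances, the mouse or slide as a block, each array left out, the mean of a gene's probes, and an unadjusted p with 1.5-fold.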

Additional observations from a re-analysis of the deposited data

How the results depend on the processing

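No gene named with a call among the subunits and the mitochondrial lists changed sign (cell type markers were tested in the reported setting alone), and of the 32 subunits that the naming rule covers, 30 stayed on their side of the threshold in every alternative run for them (15, or 14 for 4 dim isoforms). Sdhd and Ndufs7 did not. Of the other subunits, Atp5l and Ndufa11 passed with an offset of 50, Ndufs4 without esophagus mouse 4, Ndufa6 and Ndufb1-ps without esophagus mouse 1, and Uqcrq without stomach mouse 4. The share of all genes called is given for the main setting (14.9%) and for an unadjusted p with 1.5-fold (21.7%) alone. The counts below from other settings are therefore not set against the whole array, which may also have gained or lost calls. The count of subunits higher in esophagus, 2, was 4 with an offset of 50 and 5 with an unadjusted p and 1.5-fold, and 2 to 3 with an array left out. The count higher in stomach, 2, was 0 under 75th percentile scaling and 1 with the replicate block, which matches arrays by mouse number, and 0 to 2 with an array left out. It was 0 without esophagus mouse 2 and without stomach mouse 2, 1 without stomach mouse 1 (Ndufs7) and 1 without stomach mouse 4 (Sdhd). For the other lists, the 7 genes higher in esophagus became 3 under 75th percentile scaling, 4 with trended robust variances, 3 with the slide as a block and 17 with an unadjusted p and 1.5-fold. They were 0 to 9 with an array left out, 0 without stomach mouse 1 or 2, 4 without esophagus mouse 2 and 3 without esophagus mouse 4. The 13 higher in stomach became 5 under 75th percentile scaling and 20 with an unadjusted p and 1.5-fold, and 7 to 16 with an array left out, 7 without esophagus mouse 2 or stomach mouse 2. Isoform pairs without overlap numbered 2, and 2 to 4 with an array left out. Among the genes named with a call, 14 lost it under 75th percentile scaling and 6 with an offset of 50. With an array left out 5 to 15 lost it, 15 without stomach mouse 2, 13 without esophagus mouse 2 and 12 without stomach mouse 1. With the replicate block 6 lost it (Ndufs7, Coq10b, Hccs, Uqcc3, Mrpl36 and Timm9), and the block changed no other call of these. The cause of these changes was not tested. Leaving out an array also leaves fewer samples. Signal over background limits Ndufa4l2 in stomach, Ppargc1a and Esrrg in esophagus, and 4 dim isoforms in both.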
